A study of Homo sapiens with 4 samples.

Results

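Here, 36 genes of glycolysis and of the response to low oxygen were compared between FLO-1LM and FLO-1 parental cells. The genes were taken by symbol, by a rule that uses no measured value although earlier results of these data were known, and are 36 of the 63677 genes in the count files. They comprised 2 glucose transporters, 15 glycolytic enzymes, 2 lactate dehydrogenases, 2 lactate transporters, 4 enzymes that regulate entry into glycolysis or the fate of pyruvate, and 11 further targets of the hypoxia-inducible factors (HIFs). FLO-1 cells come from a long-used human line of esophageal adenocarcinoma. FLO-1LM is a single subline, grown out from a FLO-1 liver deposit after liver metastases had been carried serially through NSG mice, which lack functional lymphocytes. Cells of both lines were cultured and harvested at 80% confluency, 24 hours after a change of medium, and RNAseq was performed on 2 libraries per line. The sources used here name no low-oxygen treatment, and leave it unsaid whether the libraries of a line stem from separate cultures, so the p-values below measure only the spread between these libraries, which may be technical.

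Glycolysis splits glucose into pyruvate, and lactate dehydrogenase and the monocarboxylate transporters then convert pyruvate to lactate and carry it out of the cell. Tumor cells often run this route even when oxygen is present. When oxygen is low, prolyl hydroxylases stop marking the HIF alpha subunits for destruction, and HIF binds a short core motif near its target genes, which include many transporters and enzymes of glycolysis.

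The HIF core motif is ACGTG or GCGTG. Both were searched on both strands in the 250 bases before 1 annotated start per gene, in RefSeq sequence of build GRCh38.p14. The first start listed was taken, and other starts of a gene were not searched. Of the 36 genes, 33 were matched by symbol, and SLC2A3, VEGFA and SLC16A1 were not. At least 1 core motif was present upstream of 22 of the 33 genes (66.7%), against 43.1% of the 27305 upstream windows of all genes. ACGTG alone was present in 16 of the 33 (48.5%, against 18.7% of all windows), and GCGTG in 11 (33.3%, against 31.9%). Of the further HIF targets, 10 had a window, and 9 of these (90%) held a core motif. The list includes known HIF targets by choice, so these shares are no test of HIF action in these cells. The windows of all genes were not matched for base composition. CACGTG, which contains ACGTG on both strands, counts as an overlapping pair. The upstream sequences of 4 well known HIF targets are shown 5′ to 3′ on the strand of the gene, with the core motifs in capitals, because CA9 and BNIP3 had few or no reads in these cells whereas LDHA and P4HA1 were well expressed. They lie at chr9:35673678-35673927 (plus strand), chr10:131981924-131982173 (minus strand), chr11:18394313-18394562 (plus strand) and chr10:73096867-73097116 (minus strand).
CA9: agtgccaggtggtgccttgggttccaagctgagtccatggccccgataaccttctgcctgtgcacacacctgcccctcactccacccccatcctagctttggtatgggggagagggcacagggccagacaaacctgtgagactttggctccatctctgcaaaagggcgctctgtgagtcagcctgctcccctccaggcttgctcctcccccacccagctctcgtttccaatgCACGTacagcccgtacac
BNIP3: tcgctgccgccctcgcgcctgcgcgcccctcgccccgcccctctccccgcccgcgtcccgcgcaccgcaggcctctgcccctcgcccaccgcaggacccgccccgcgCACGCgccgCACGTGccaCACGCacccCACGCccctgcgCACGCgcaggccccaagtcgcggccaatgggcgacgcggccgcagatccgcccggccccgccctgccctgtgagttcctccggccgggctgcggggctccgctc
LDHA: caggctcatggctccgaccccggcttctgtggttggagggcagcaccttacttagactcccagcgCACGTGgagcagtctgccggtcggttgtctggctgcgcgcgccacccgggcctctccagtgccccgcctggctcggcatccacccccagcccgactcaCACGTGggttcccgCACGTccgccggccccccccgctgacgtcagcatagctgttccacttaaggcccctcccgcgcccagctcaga
P4HA1: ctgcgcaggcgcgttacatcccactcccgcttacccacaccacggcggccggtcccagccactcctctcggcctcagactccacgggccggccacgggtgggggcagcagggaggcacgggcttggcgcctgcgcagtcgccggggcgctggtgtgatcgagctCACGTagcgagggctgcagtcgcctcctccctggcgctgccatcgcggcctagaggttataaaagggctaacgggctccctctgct
BNIP3 carried 2 matches to ACGTG and 4 to GCGTG, LDHA carried 5 to ACGTG, and CA9 and P4HA1 each carried 1 to ACGTG. A match is a description of these letters and not a binding site, and the motifs were found before genes with and without reads.

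Total counts on genes ranged from 19060310 to 25920336 per library, and 1.22% to 1.29% of them lay on the 36 genes. The 2 libraries of a line differed by more than sampling noise. A chi-square was taken over the genes that reached a low count floor in that pair of libraries. It was 9.16 times its degrees of freedom for FLO-1LM and 4.37 times for parental cells. The keratins of the epithelial lineage were expressed in both lines (KRT8 at 283 and 263 CPM in FLO-1LM and at 434 and 453 CPM in parental cells). KRT8, KRT18, KRT19 and CDH1 were lower in FLO-1LM at an adjusted p below 0.05 in edgeR. Their log2 fold changes were −0.70, −0.66, −1.31 and −2.21. KRT7, at 3.08 to 6.37 CPM, had a value of 0.64 (adjusted p = 0.30 in edgeR). EPCAM did not exceed 0.47 CPM in any library. The hepatocyte genes ALB, APOB, TTR and FGB, the fibroblast genes COL3A1 and DCN, the endothelial gene KDR and the leukocyte genes PTPRC and CSF1R had 0 counts in all 4 libraries. Other genes of these marker lists had reads in both lines, with SERPINA1 (hepatocyte list) at 13.2 to 18.1 CPM, COL1A1 (fibroblast list) at 9.70 to 12.7 CPM and CD74 (leukocyte list) at 340 to 462 counts, and their part in the results was not tested. CPM are counts scaled to a common library size with edgeR's TMM factors. No library date or batch was given, and if the lines were prepared in different batches, batch and line cannot be told apart.

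Of the 36 genes, 34 had enough counts to be tested. Expression of 1 gene, the glucose transporter SLC2A3, was lower in FLO-1LM, and 0 were higher, at an adjusted p below 0.05 in edgeR's quasi-likelihood test (Benjamini-Hochberg over all 17143 genes tested). This is 2.94% of the tested members called lower, beside 1.83% of all genes tested called lower and 0.402% called higher. Without adjustment, 9 of the 34 tested members had a p below 0.05, beside 2119 of all 17143 genes tested. The latter is also the background for such counts in the lists below. DESeq2 and limma voom likewise called 1 lower and 0 higher. The median log2 fold change of the 34 genes was 0.057, beside 0.0016 over all genes tested, and 22 were above 0 and 12 below. For 27 of the 34 (79.4%) the 95% interval of the log2 fold change lay within 0.5 of 0, which was the case for 53.4% of all genes tested. Such a share also depends on the width of the intervals. The median SE was 0.089 for the members and 0.145 for all genes tested. The 2 FLO-1LM libraries lay below both parental libraries for 5 of the 34 (14.7%, background 21.7%) and above both for 14 (41.2%, background 20.9%). The smallest p that an exact permutation test could give for 1 gene with these library numbers is 0.333.

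**Figure D1:**
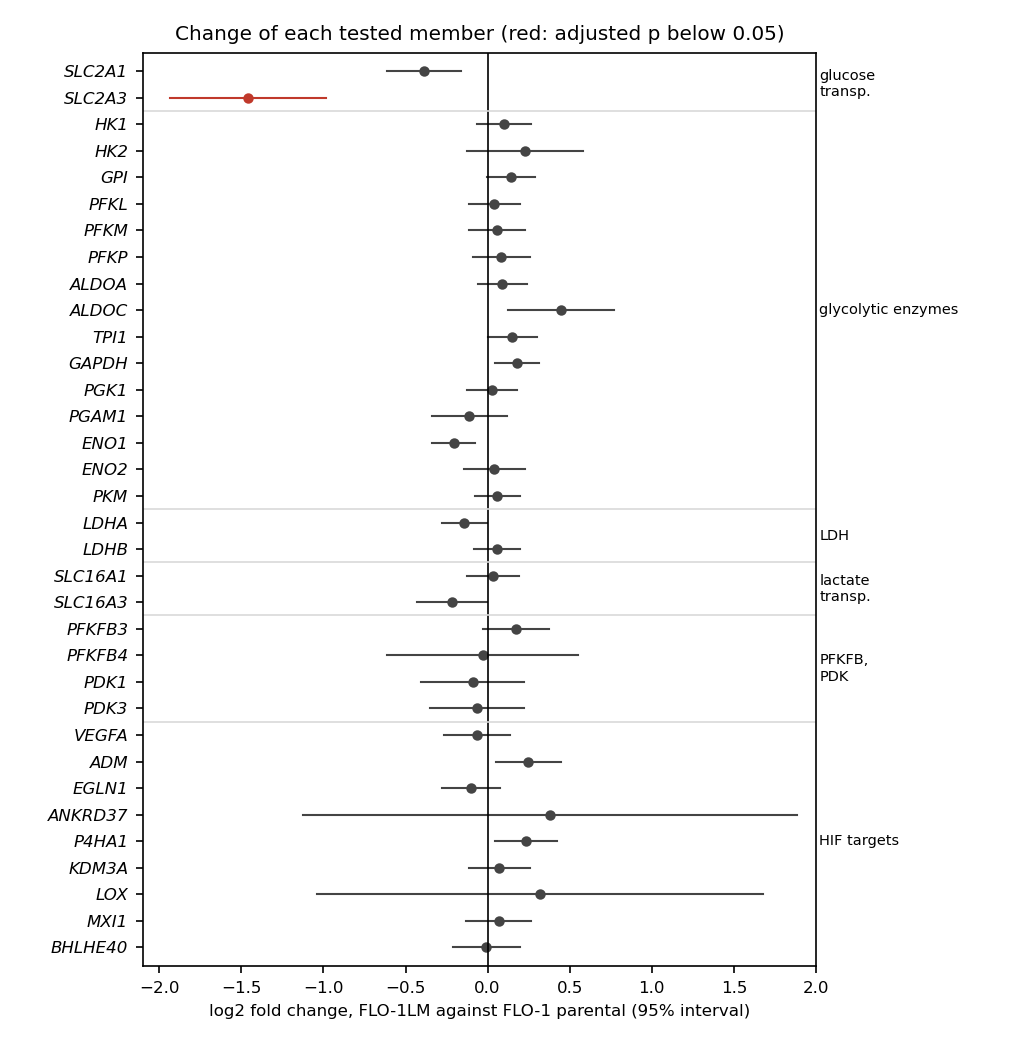
Log2 fold change of each of the 34 tested genes in FLO-1LM against FLO-1 parental cells (x axis), with 95% intervals from edgeR, 2 libraries per line. SLC2A3, in red at −1.46, is the single gene past the threshold, and most of the others lie within 0.5 of 0, with wide intervals for ANKRD37 and LOX, which had few counts.

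SLC2A3 encodes GLUT3, a glucose transporter of high affinity best known from neurons and also found in tumors. Its counts were 89 and 81 in the FLO-1LM libraries and 226 and 179 in the parental libraries, or 3.99 and 3.15 CPM against 10.3 and 9.34 CPM. Both FLO-1LM libraries lay below both parental ones by a margin wider than the spread within either line. Expression fell by 1.46 on the log2 scale (SE 0.23, 95% interval −1.94 to −0.98, adjusted p = 0.00104 in edgeR), or fell by 63.6%. It ranked 78 among the 17143 genes ordered by p. SLC2A3 was called lower in all 12 alternative analyses, with log2 fold changes between −1.64 and −1.29 and adjusted p from 3.03e-09 to 0.0243. In bulk RNA, fewer cells that express a gene and less of its RNA per cell cannot be told apart. The nearly identical neighbour SLC2A14, whose reads could be exchanged with those of SLC2A3, had 0 and 2 counts in FLO-1LM and 3 and 0 in parental cells. The annotated SLC2A3 pseudogenes held 0 and 0 counts in FLO-1LM and 2 and 2 in parental cells.

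SLC2A1 encodes GLUT1, the basal glucose transporter of most cultured cells. Its levels were 40.8 and 35.3 CPM in FLO-1LM and 46.9 and 52.7 CPM in parental cells, again without overlap between the lines. The log2 fold change was −0.39 (SE 0.11, adjusted p = 0.073 in edgeR), which did not pass the threshold. It passed with library totals in place of TMM factors (−0.42, adjusted p = 0.041), without the low-count filter (−0.39, 0.022) and without FLO-1LM replicate 1 (−0.49, 0.00077), and was −0.28 (0.11) without FLO-1LM replicate 2. Divided by transcript length, SLC2A1 was the more abundant of the pair in every library. SLC2A3 made up 7.96% and 7.30% of their summed CPM per kilobase in FLO-1LM, and 16.2% and 13.5% in parental cells.

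The 15 glycolytic enzymes were expressed in every library, and 0 of them changed in either direction at the threshold in edgeR (3 at an unadjusted p below 0.05, and 0 called by DESeq2 or limma voom). Their summed level was 9869 and 9626 CPM in FLO-1LM and 9535 and 10073 CPM in parental cells, which overlap. The median log2 fold change was 0.085, with 13 above 0 and 2 below, and the range was −0.21 to 0.45. The 2 below 0 were PGAM1, a phosphoglycerate mutase, at −0.11, and ENO1.

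**Figure D2:**
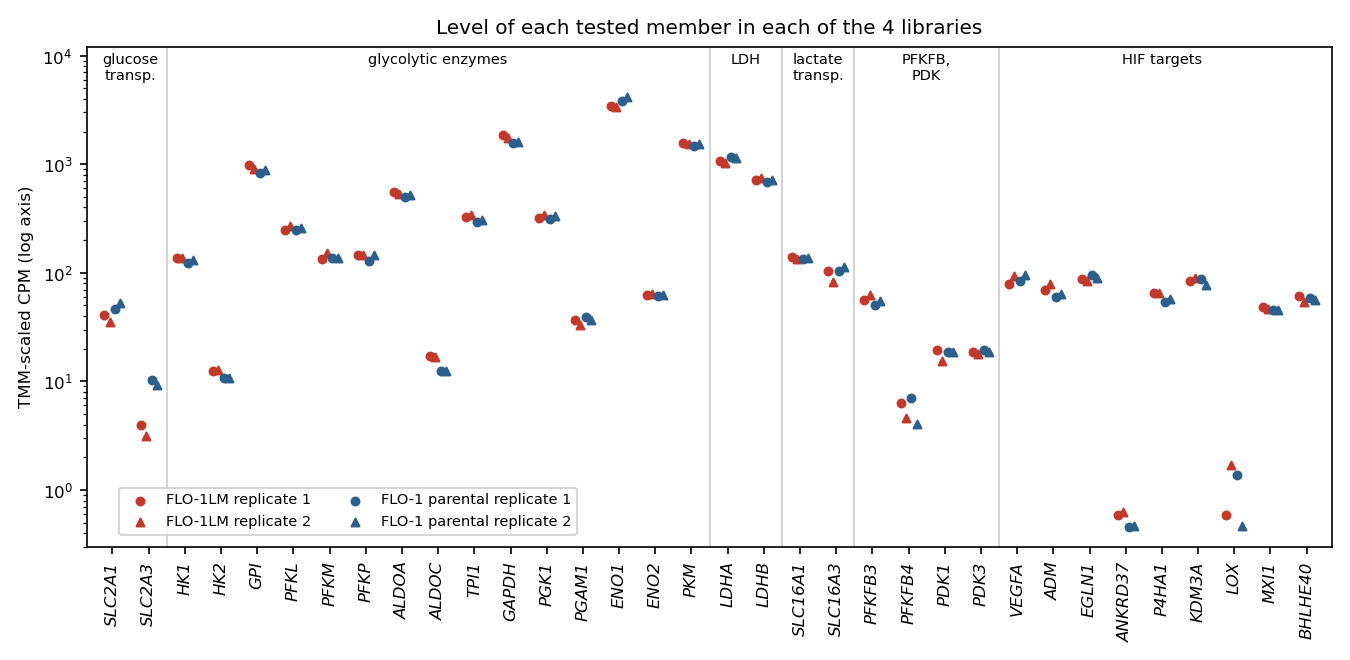
TMM-scaled CPM (log axis) of the 34 tested genes in each of the 4 libraries, red for FLO-1LM and blue for FLO-1 parental cells, with circles for replicate 1 and triangles for replicate 2. The 4 points of a gene mostly lie close together, from ENO1 at 3399 to 4120 CPM down to ANKRD37 and LOX at 0.45 to 1.71 CPM, and SLC2A3 shows the clearest gap between the lines.

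ALDOC, a minor aldolase, had the largest fold change among the enzymes, with 17.3 and 16.8 CPM in FLO-1LM and 12.4 and 12.6 CPM in parental cells. The lines did not overlap, and the log2 fold change was 0.45 (SE 0.15, adjusted p = 0.18 in edgeR). HK2, the inducible hexokinase of many tumors, was measured at 12.4 and 12.7 CPM in FLO-1LM and at 10.7 and 10.8 CPM in parental cells. Its log2 fold change was 0.23 (SE 0.17, adjusted p = 0.66). HK1, the housekeeping hexokinase, was far more abundant at 124 to 137 CPM, with a log2 fold change of 0.099.

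ENO1 and GAPDH are described because they were called in some alternatives, and so were singled out after their values had been seen. ENO1, the enolase that forms phosphoenolpyruvate, was the most abundant of the 36 genes, at 3463 and 3399 CPM in FLO-1LM and 3795 and 4120 CPM in parental cells. Its log2 fold change was −0.21 (SE 0.063, adjusted p = 0.12 in edgeR), and it was called lower with library totals (−0.24, 0.046), without the low-count filter (−0.21, 0.0066) and without FLO-1LM replicate 1 (−0.22, 0.042), but not without FLO-1LM replicate 2 (−0.19, 0.083). GAPDH, which produces the NADH of glycolysis and often serves as a reference gene, was measured at 1851 and 1748 CPM in FLO-1LM and at 1580 and 1599 CPM in parental cells. The log2 fold change was 0.18 (SE 0.064, adjusted p = 0.21), and it passed the threshold only without FLO-1LM replicate 2 (0.22, 0.049), and was 0.14 (0.32) without FLO-1LM replicate 1. The fitted values of these 2 abundant enzymes thus lay on opposite sides of 0, each with lines that did not overlap. The other 10 enzymes, among them the phosphofructokinases, PGK1, TPI1, GPI and PKM, had log2 fold changes between −0.11 and 0.15, with adjusted p of 0.41 or higher in edgeR.

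Per kilobase of the canonical transcript, ENO1 stood first in parental cells at 2222 CPM per kb, followed by GAPDH (1237), PKM (647), LDHB (538), LDHA (514), ALDOA (311), TPI1 (221) and GPI (207). FLO-1LM gave the same order of these 8 genes, at 1926, 1400, 675, 560, 466, 331, 245 and 229 CPM per kb. Over all annotated exons PKM (174 CPM per kb) dropped below LDHB (235) and LDHA (191) in parental cells. This part of the order thus depends on the transcript length that is used. Reads on pseudogenes were left out of these levels. Pseudogenes took 34.5% to 38.5% of the joint counts of TPI1 and its pseudogenes, and 0.46% to 1.18% of those of ALDOA. The shares were 13.3% to 14.4% for LDHA and 3.02% to 4.53% for LDHB. The order, and its being the same in both lines, holds only with these counts left out. Adding them would place TPI1 above ALDOA in both lines. It would also place LDHA above LDHB in parental cells, but not in FLO-1LM. Within the hexokinase, aldolase and enolase steps, a single form dominated in both lines. HK1 made up at least 94.4% of the summed level per kilobase of HK1 and HK2. ALDOA made up 96.8% to 97.6% of that of ALDOA and ALDOC, and ENO1 98.6% to 98.8% of that of ENO1 and ENO2. ENO3, a companion gene left out of this share, had 25.8 CPM per kb in FLO-1LM and 33.1 in parental cells (adjusted p = 0.11 in edgeR). ENO2 had 27.7 and 27.0. Among the phosphofructokinases, the liver form PFKL held 46.5% to 47.6%, the muscle form PFKM 23.4% to 24.9% and the platelet form PFKP 27.5% to 30.1%. Over all annotated exons, parental cells had 28.2 CPM per kb for PFKL, 18.9 for PFKM and 17.6 for PFKP. The order of PFKM and PFKP thus depends on the length that is used.

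**Figure D3:**
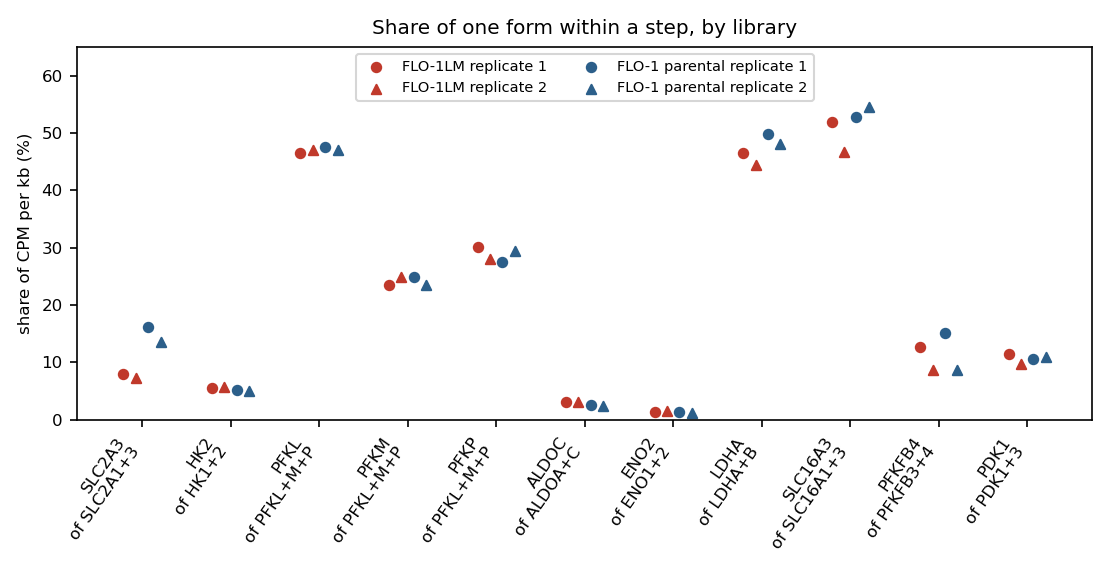
Share (%) of the named gene in the summed CPM per kilobase of the members of the same step (named under each column, other genes of the step left out), in each of the 4 libraries, red for FLO-1LM and blue for FLO-1 parental cells. The SLC2A3 share was 7.30% to 7.96% in FLO-1LM and 13.5% to 16.2% in parental cells, and the phosphofructokinase shares overlapped. Shares use the length of the canonical transcript. Over all annotated exons, parental cells had 1.25 CPM per kb for PDK1 and 1.10 for PDK3, and 11.7 for SLC16A3 and 21.2 for SLC16A1.

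The lactate dehydrogenase subunits were not called. LDHA, the subunit that favours lactate formation and a classic HIF target, was measured at 1071 and 1018 CPM in FLO-1LM and at 1164 and 1140 CPM in parental cells. Both FLO-1LM libraries were lower, with a log2 fold change of −0.14 (SE 0.066, adjusted p = 0.39 in edgeR). LDHB, the subunit that prevails in oxidative tissues, had 717 and 742 CPM in FLO-1LM and 684 and 718 CPM in parental cells, with overlap and a log2 fold change of 0.058 (adjusted p = 0.82). LDHA made up 46.5% and 44.4% of their summed level per kilobase in FLO-1LM and 49.7% and 48.0% in parental cells. Pseudogene counts, a larger part for LDHA than for LDHB, were left out of these shares.

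Of the lactate transporters, SLC16A1 (MCT1) had 140 and 135 CPM in FLO-1LM and 133 and 136 CPM in parental cells, a log2 fold change of 0.033 (adjusted p = 0.92 in edgeR). SLC16A3 (MCT4), the HIF-induced exporter of glycolytic cells, had 105 and 81.7 CPM in FLO-1LM and 103 and 113 CPM in parental cells. The FLO-1LM libraries of SLC16A3 differed from each other by more than the line means did, and the log2 fold change was −0.21 (SE 0.10, adjusted p = 0.40). Without FLO-1LM replicate 1 it was −0.40 (adjusted p = 0.0011), and without FLO-1LM replicate 2 it was −0.04 (adjusted p = 0.85). Their shared chaperone BSG (basigin) was measured at 829 to 924 CPM, with a log2 fold change of −0.05.

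The 4 regulators were likewise not called (0 at an unadjusted p below 0.05). PFKFB3, which makes the activator of phosphofructokinase, was measured at 56.1 and 62.6 CPM in FLO-1LM and at 50.6 and 54.8 CPM in parental cells. Its log2 fold change was 0.17 (SE 0.096, adjusted p = 0.51 in edgeR), although the lines did not overlap. PDK1, a kinase that inhibits pyruvate dehydrogenase, had 19.5 and 15.5 CPM in FLO-1LM and 18.7 and 18.6 CPM in parental cells (log2 fold change −0.09, adjusted p = 0.88). The related kinase PDK3 had a log2 fold change of −0.06, and PFKFB4, at 4.02 to 7.08 CPM, one of −0.03 with an SE of 0.28.

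Of the 11 further HIF targets, 9 were tested and 0 were called (2 at an unadjusted p below 0.05), with 6 above 0, 3 below and a median log2 fold change of 0.072. CA9, the membrane carbonic anhydrase that is widely used as a hypoxia marker, had 0 counts in all 4 libraries, which allows a level of up to 0.117 to 0.156 CPM (3 counts, counting error only). BNIP3, a mitophagy receptor, had 2 counts in parental replicate 1 and 0 in the others. No fold change can be given for either. In contrast, BNIP3L, the related receptor, was measured at 163 and 151 CPM in FLO-1LM and at 128 and 135 CPM in parental cells (log2 fold change 0.25, SE 0.079, adjusted p = 0.14 in edgeR, 0.31 with adjusted p = 0.016 without FLO-1LM replicate 2, and 0.19 with adjusted p = 0.19 without FLO-1LM replicate 1).

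ADM, the vasodilator adrenomedullin, and P4HA1, a collagen prolyl hydroxylase subunit, are given as the 2 HIF targets with an unadjusted p below 0.05. ADM had 68.9 and 78.8 CPM in FLO-1LM and 60.1 and 64.4 CPM in parental cells, with a log2 fold change of 0.25 (SE 0.094, adjusted p = 0.25 in edgeR). It was called higher without FLO-1LM replicate 1 (0.34, adjusted p = 0.014), and was 0.15 (adjusted p = 0.44) without FLO-1LM replicate 2. P4HA1 had 65.3 and 65.8 CPM in FLO-1LM and 53.8 and 57.9 CPM in parental cells, with a log2 fold change of 0.23 (SE 0.091, adjusted p = 0.27). For both genes the lines did not overlap. VEGFA, the endothelial growth factor, was expressed at 78.8 and 94.0 CPM in FLO-1LM and at 84.5 and 96.3 CPM in parental cells, with overlap and a log2 fold change of −0.06.

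The largest fitted changes among the HIF targets belonged to genes with few counts. ANKRD37, an ankyrin repeat protein, had 13 and 16 counts in FLO-1LM and 10 and 9 in parental cells (log2 fold change 0.38, SE 0.72). LOX, the collagen crosslinking enzyme lysyl oxidase, had 13 and 44 counts in FLO-1LM and 30 and 9 in parental cells (0.32, SE 0.65), and the value was −0.66 without FLO-1LM replicate 2 and −0.24 without FLO-1 parental replicate 2. No difference between the lines was detected for these 2 genes, and their 95% intervals were wide (−1.12 to 1.89 for ANKRD37 and −1.04 to 1.68 for LOX). For LOX the libraries of each line also differed widely from each other. The oxygen-sensing hydroxylase EGLN1, the histone demethylase KDM3A and the transcriptional regulators MXI1 and BHLHE40, at 45.1 to 94.5 CPM, had log2 fold changes between −0.10 and 0.07.

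The HIF subunits and their regulators were read from the same analysis. HIF1A, the oxygen-regulated subunit of HIF-1, was measured at 148 and 118 CPM in FLO-1LM and at 112 and 116 CPM in parental cells. Replicate 1 of FLO-1LM stood above the other 3 libraries, and the log2 fold change was 0.22 (SE 0.095, adjusted p = 0.35 in edgeR). It was 0.37 (adjusted p = 0.0016) without FLO-1LM replicate 2 and 0.04 (0.85) without FLO-1LM replicate 1. EPAS1, which encodes HIF-2 alpha, was much lower at 3.64 and 3.81 CPM in FLO-1LM and 5.85 and 5.74 CPM in parental cells, without overlap (log2 fold change −0.64, SE 0.25, adjusted p = 0.27). The partner subunit ARNT had a log2 fold change of −0.04, the ubiquitin ligase subunit VHL −0.15 and the hydroxylases EGLN2 and EGLN3 −0.02 and −0.16. Of the 15 subunits and regulators, all were tested and 0 were called, with a median of −0.034 (4 at an unadjusted p below 0.05). HIF activity is set largely by protein stability, which was not measured here.

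Of 98 companion genes of the same pathways, 81 were tested and 0 were called in either direction in edgeR, with a median log2 fold change of 0.0020 (13 at an unadjusted p below 0.05). DESeq2 called 0 of them and limma voom 1. Of the 28 further HIF targets in this list, 27 were tested, with a median of 0.038. NDRG1, often used as a hypoxia marker, had a log2 fold change of 0.06, and PLOD2, a collagen lysyl hydroxylase, had at most 1 count in a library and was not tested.

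Several of the enzymes have processed pseudogenes whose reads cannot be fully separated from theirs. Pseudogenes took 23.5% and 24.7% of the joint GAPDH counts in FLO-1LM and 26.9% and 26.8% in parental cells, and 34.5% to 38.5% of the joint TPI1 counts. With pseudogene counts added to their gene, the log2 fold change of GAPDH was 0.13 (adjusted p = 0.43 in edgeR) and that of TPI1 0.11, and SLC2A3 was again the single member called. Of 25 tested pseudogenes, 1 was called, the transcribed GAPDH pseudogene GAPDHP72, which was higher in FLO-1LM at 19.3 and 15.4 CPM against 9.62 and 10.1 CPM (log2 fold change 0.81, SE 0.17, adjusted p = 0.013).

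Of the 10 tested genes that lie on the opposite strand over an exon of a member, 1 was called. This was ENSG00000269968, a noncoding RNA opposite the 3′ end of GAPDH (chr12:6646960-6647536, GRCh37, minus strand), whose annotated exon overlaps GAPDH exons over 422 bases. It had 75 and 26 counts in FLO-1LM and 501 and 463 in parental cells (log2 fold change −3.45, SE 0.30, adjusted p = 1.49e-06 in edgeR). These counts equal 0.182% and 0.0578% of the GAPDH counts in FLO-1LM and 1.44% and 1.51% in parental cells. The strand setting of the counting is not given in the sources used here, so reads of GAPDH and of this gene cannot be told apart where they overlap. ENO1-AS1, which overlaps ENO1 exons over a shorter stretch of 126 bases, had 4 and 7 counts in FLO-1LM and 3 and 7 in parental cells and was not tested.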

How the data were processed

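Read counts per Ensembl gene were analysed in 4 RNAseq libraries, 2 from FLO-1LM and 2 from FLO-1 parental cells. The authors deposited raw counts without normalization. They demultiplexed and trimmed directional libraries (bcl2fastq 2.17 and Trimmomatic 0.30, per the submitters' processing notes) and mapped them to GRCh37. The aligner, counting program and strand setting are not given in the sources used here. Genes were filtered with edgeR's filterByExpr (minimum count 10, minimum total 15), scaled by TMM and tested in edgeR 4.0.16 (R 4.3.3) by the quasi-likelihood test with Benjamini-Hochberg adjustment. A gene was called at an adjusted p below 0.05. Total counts of 19060310 to 25920336 gave a median SE of 0.089 (log2) for the members. Alternatives used limma voom (limma 3.58.1, as in the study), DESeq2 1.42.0, other scalings and filters, and each library left out. Adding pseudogene counts to their gene was chosen after the data were seen. Scripts were tested on simulated data. Gene positions come from GENCODE on GRCh37, and promoters (RefSeq, GRCh38.p14) were searched in Python 3.11.15. All members were described, in full for those called and for the 2 with the largest absolute log2 fold change in each role. A few companion genes are not reported here. The rule for the members uses no measured value, but members and lists were chosen with earlier results of these data known.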

Additional observations from a re-analysis of the deposited data

How the results depend on the processing

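SLC2A3 was called lower in all 12 alternative analyses. The count of members called lower was 3 with library totals only, where SLC2A1 and ENO1 were added, and 3 without the low-count filter, with the same additions. Over the fits that left out 1 library, members called lower ranged from 1 to 4 and members called higher from 0 to 1. The 4 were SLC2A3, SLC2A1, ENO1 and SLC16A3, and ADM was higher, all without FLO-1LM replicate 1. GAPDH was higher without FLO-1LM replicate 2. The median log2 fold change of the members moved from 0.057 to 0.027 with library totals only, where the median of all genes was −0.029. Of 406 values of single members under an alternative, 397 stayed on the same side of the threshold and 9 newly passed it. The count of all genes called was 382, and it was 577 without the low-count filter, 1052 without FLO-1LM replicate 1, 967 without replicate 2, 116 without FLO-1 parental replicate 1 and 139 without replicate 2. Each fit without a library assumes that the lone library of a line varies like the other line. Over the 12 alternatives, adjusted p ran from 0.00077 to 0.79 for SLC2A1, 0.0066 to 0.79 for ENO1, 0.049 to 0.89 for GAPDH, 0.0011 to 0.99 for SLC16A3 and 0.014 to 0.999 for ADM. Companion genes called numbered 0 in the reported fit, 4 without the low-count filter, 4 without FLO-1LM replicate 1, 9 without FLO-1LM replicate 2 and at most 1 in the other settings. The cause of these shifts was not tested. No paired analysis was possible because the labels carry no replicate numbers, and those used here were given in accession order and only name the libraries. Low counts limit ANKRD37, LOX, CA9 and BNIP3, and the spread between libraries of a line also limits LOX.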

Other observations

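The branches that leave glycolysis were read from the same analysis, and 0 of their genes were called in edgeR. All 7 genes of the pentose phosphate pathway were tested, with a median log2 fold change of −0.025 and a range of −0.09 to 0.15. Of the 11 genes for the entry of pyruvate into mitochondria, 10 were tested, with a median of 0.0031. The pyruvate carrier subunits MPC1 and MPC2 had log2 fold changes of −0.15 and −0.09. Of the 7 genes of gluconeogenesis, 3 were tested, with 2 above 0, 1 below and a median of 0.021. PCK2 had 74.6 and 115 CPM in FLO-1LM and 68.9 and 82.5 CPM in parental cells (log2 fold change 0.33, SE 0.14, adjusted p = 0.33 in edgeR). PC, the pyruvate carboxylase of the same list, had 19.0 and 27.6 CPM in FLO-1LM and 31.3 and 32.9 CPM in parental cells (log2 fold change −0.46, SE 0.15, adjusted p = 0.14 in edgeR). PC was called lower without the low-count filter (−0.46, adjusted p = 0.024) and without FLO-1LM replicate 2 (−0.75, 8.00e-06), but was −0.22 (adjusted p = 0.36) without FLO-1LM replicate 1, and was singled out after its values had been seen.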
